A study of Arabidopsis thaliana with 6 samples.

Results

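Chloroplasts and mitochondria keep genomes of their own, and a block of the Arabidopsis array was designed to measure RNA from them. Its members were chosen by array design, as the probe sets whose identifier begins with a number from 244901 to 245026. They are 126 of the 22810 probe sets on the array, and all 126 were among the 22746 tested after the 64 control probe sets were set aside. RNA came from seedlings of Arabidopsis thaliana, ecotype Col-0, raised at 23 °C on solid medium, with 1 Affymetrix array for each of 6 samples. Under light, 3 control samples received no heat and 3 heat samples were exposed to 37 °C for 30 min. The labels give the arrays ages of 10 to 15 days, a different one each and rising from the control to the heat arrays, whereas the series text gives 10 days for all. Every heat array has a higher labelled age than every control array, so a fit that adds this age can hardly separate it from heat. The dark groups that the series text names were not analysed here. Whether the samples of a group were grown separately is not stated, so p-values measure the spread between these samples, which may be technical.

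The chloroplast genome encodes core proteins of both photosystems, the large subunit of Rubisco, part of the chloroplast ribosome and the plastid-encoded RNA polymerase. The mitochondrial genome encodes subunits of the respiratory chain and of the ATP synthase, and part of the mitochondrial ribosome. Nuclear messenger RNAs carry long stable poly(A) tails, while in plant organelles a tail marks an RNA for decay. Arabidopsis chromosome 2 also carries, near its centromere, a large inserted copy of the mitochondrial genome, so a probe set for a sequence in that copy cannot tell nuclear from mitochondrial RNA.

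The authors' annotation told little of which genome a member belongs to. It gave 114 of the 126 members no gene at all. It linked 11 members to nuclear gene identifiers, 10 members to 1 gene and 1 member to 2 genes. All 11 were found in RefSeq's genes for TAIR10.1, at 10 loci that all lie on chromosome 2. Of these loci 8 are protein-coding and the other 2 are tRNA pseudogenes. The twelfth annotated member, 244916_at, carried the symbol ORF187 and no gene identifier. None of the members, and no other probe set on the array, was linked to a RefSeq gene of the plastid or the mitochondrial genome. Chloroplast and mitochondrial members therefore could not be separated by annotation, and members without a locus are given by identifier only. The suffix _s_at, which marks probe sets that match more than 1 transcript, was carried by 21 members.

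Levels are log2 values as deposited, and a change is the mean of the heat arrays minus the mean of the control arrays on that scale. A member was called when its adjusted p was under 0.05 in limma's moderated test, fitted over all probe sets with Benjamini-Hochberg adjustment. By that rule 40 members rose, which is 31.7% of them, where 7.82% of all probe sets tested rose. In the other direction 1 member fell, where 11.5% of all probe sets fell. Of the 40 rises 23 were at least 2-fold, beside 2.8% of all probe sets, and 6 were at least 16-fold, beside 0.466%. The fall was less than 2-fold, a size that 3.98% of all probe sets reached downward. All heat arrays lay above all control arrays for 47 members (18.8% of all probe sets) and below them for 6 (20.0%). The median change of the 126 members was 0.48, against 0.02 for all probe sets tested. Changes are relative to the bulk of transcripts. With arrays scaled to the 24 Bacillus control probe sets, the median of all probe sets moved to -0.49.

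Set out by number, the rises lay in stretches. The members numbered 244901 to 244931 and 244941 to 244959, 50 in all, are called the 50-member set here, and those numbered 244932 to 244940 and 244960 to 245026 the 76-member set. These bounds were chosen after the changes had been seen, so the contrast between the sets is a description with no test. In the 50-member set 37 members rose (74.0%), 0 fell and all 50 had a positive change, from 0.08 to 6.24 with a median of 0.84. In the 76-member set 3 rose (3.95%) and 1 fell (1.32%), and changes ran from -0.45 to 1.30 with a median of 0.20. Over all probe sets tested 7.82% rose, 11.5% fell and 12204 of 22746 had a positive change. All 12 annotated members belong to the 50-member set. The first probe set past the block, 245027_at, differed by 0.15 ± 0.14 (log2, ± SE; limma adjusted p = 0.517).

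**Figure D1:**
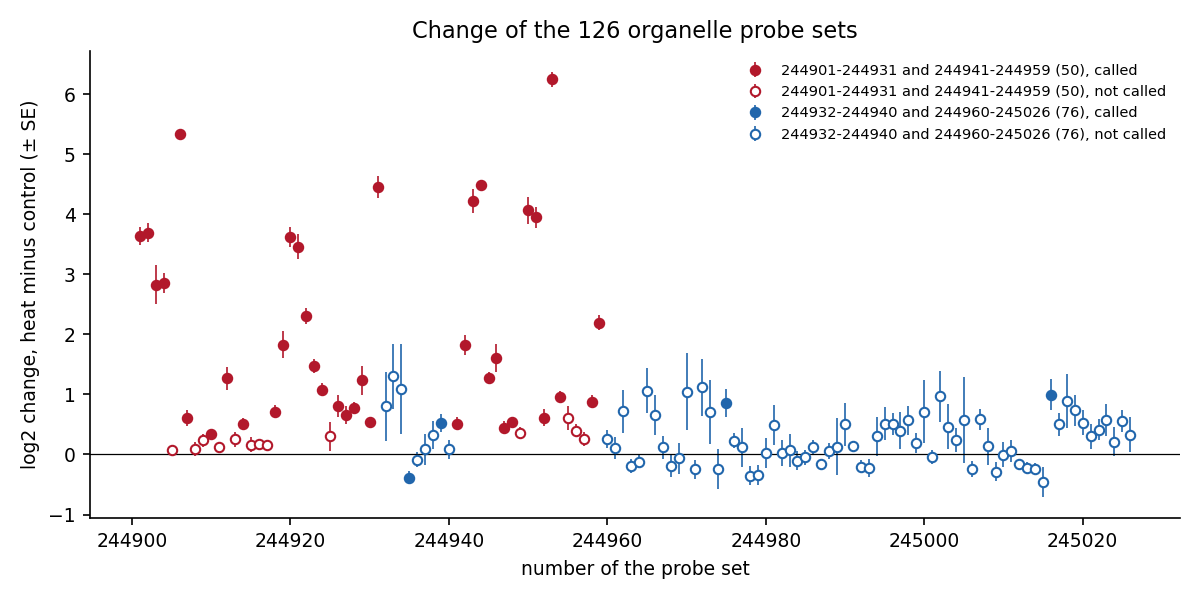
Change of each of the 126 members (log2, heat minus control, vertical axis; bars are limma standard errors) against the number of its probe set (horizontal axis), with filled points for members called at an adjusted p under 0.05. The large changes, up to 6.24, all lie in the red stretches of the 50-member set, and the blue 76-member set stays between -0.45 and 1.30.

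The largest rise of any member was in 244953_s_at, which has no gene in the annotation. Its level was 3.54, 3.78 and 3.60 in control arrays 1, 2 and 3 and 10.06, 9.91 and 9.67 in the heat arrays. The groups were far apart, a change of 6.24 ± 0.12 (limma adjusted p = 7.16e-07) or 75.8-fold between the deposited levels. How much of the control level of any member is background was not measured, so the fold changes given here may understate the change in RNA. The next was 244906_at, with 4.40, 4.44 and 4.47 in the control arrays against 9.77, 9.69 and 9.84 after heat. That is a change of 5.33 ± 0.08 (limma adjusted p = 2.41e-07), or 40.3-fold, and the replicates of each group lay close together. Member 244944_s_at lay at 4.36, 4.37 and 4.41 in the control arrays and at 8.93, 8.93 and 8.74 after heat, a change of 4.49 ± 0.08 (limma adjusted p = 6.69e-07).

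Of the other rises of at least 16-fold, 244931_at changed by 4.45 ± 0.18, 244943_at by 4.21 ± 0.20 and 244950_at by 4.07 ± 0.23. Control array 2 was the highest control for 244950_at, at 4.62 beside 3.70 and 3.89, and still lay far under the lowest heat array at 8.11. The next in size were 244951_s_at with 3.95 ± 0.17, 244902_at with 3.69 ± 0.16 and 244901_at with 3.64 ± 0.15. All adjusted p-values in this group of 6 were at most 7.51e-05 (limma). In all, 9 members of the 50-member set rose between 4-fold and 16-fold, these 3 among them, 8 rose between 2-fold and 4-fold and 14 by less than 2-fold. Of the 14 members of that set with the suffix _s_at 12 rose, with a median change of 1.83 over the 14. Of the 36 with the suffix _at 25 rose, with a median of 0.63. The share of all probe sets tested that rose was 7.82%. The 10 largest rises were called in each of the 16 alternative fits. Across those fits the change of 244953_s_at ran from 5.74 to 6.49.

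**Figure D2:**
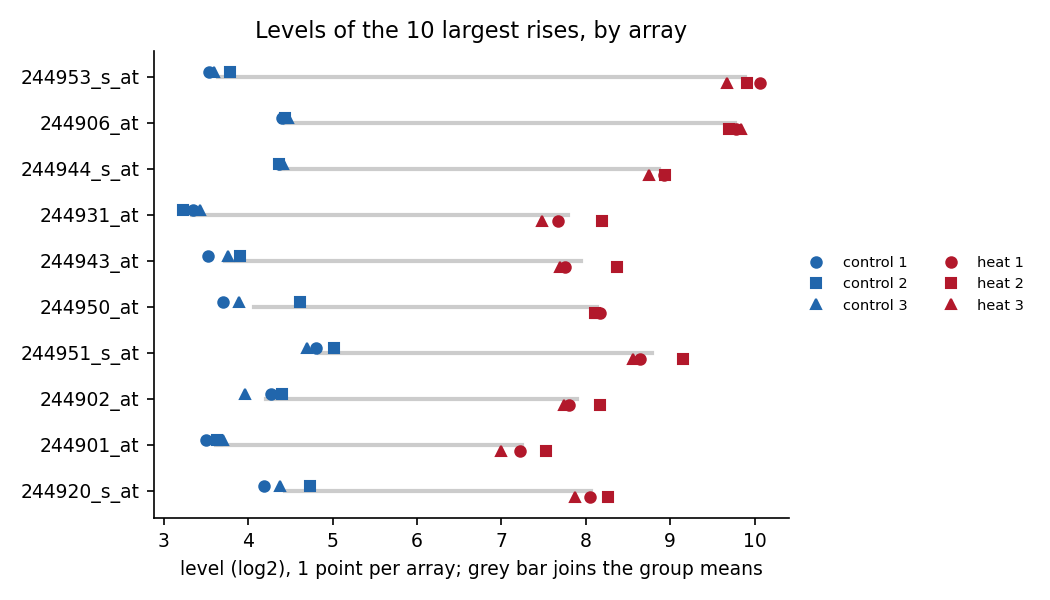
Level (log2, horizontal axis) of the 10 members with the largest rises, 1 point per array, control arrays in blue and heat arrays in red, with the group means joined by a grey bar. For each of these members every heat array lies above every control array. For 244950_at control array 2 stands apart from the other controls, at 4.62.

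The 11 members with loci on chromosome 2 had a median change of 1.47, and 10 of them rose while 0 fell. Over all probe sets tested 7.82% rose and 11.5% fell. AT2G07751, a protein-coding locus read by 244920_s_at, lay at 4.19, 4.73 and 4.38 in the control arrays and at 8.05, 8.26 and 7.87 after heat. This probe set rose by 3.62 ± 0.17 (limma adjusted p = 2.87e-05), 12.3-fold. AT2G07708, read by 244959_s_at, rose from 4.45, 4.63 and 4.25 to 6.78, 6.68 and 6.46, a change of 2.2 ± 0.13 (limma adjusted p = 0.000101). AT2G07768, read by 244919_at, rose from 4.40, 4.19 and 4.43 to 6.54, 6.29 and 5.67, a change of 1.83 ± 0.22 (limma adjusted p = 0.00208). For these 3 loci no heat array came within 1 log2 unit of a control array. A locus named here or below is the label of its probe set. Where the locus lies in the inserted copy, nuclear and mitochondrial RNA cannot be told apart.

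A single locus, AT2G07674, was read by 3 members, and they did not give 1 size of change. Member 244921_s_at went from 3.82, 4.21 and 4.33 to 7.24, 7.56 and 7.94, a change of 3.46 ± 0.21. Member 244922_s_at went from 4.04, 3.89 and 4.26 to 6.26, 6.26 and 6.58, a change of 2.31 ± 0.14. Member 244923_s_at went from 4.86, 5.08 and 5.14 to 6.33, 6.51 and 6.65, a change of 1.47 ± 0.12. All 3 rose (limma adjusted p between 9.36e-05 and 0.00037) and in all 3 the groups were apart. The difference in size between these probe sets was not tested.

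The other annotated members changed by less than 2-fold. AT2G07732 (244954_s_at) rose by 0.96 ± 0.10 (limma adjusted p = 0.00133), AT2G07715 (244928_s_at) by 0.78 ± 0.10 (adjusted p = 0.00231) and the tRNA pseudogenes AT2G07742 and AT2G07778 (244918_at) by 0.71 ± 0.11 (adjusted p = 0.00541). Bacillus scaling ended these calls (adjusted p = 0.0825, 0.257 and 0.394, with changes of 0.46, 0.27 and 0.21), and those of 244928_s_at and 244918_at also ended with a covariate for labelled age (adjusted p = 0.18 and 0.372). Because labelled age rises with heat, a call lost with that covariate, here or below, does not tell age from heat. AT2G07776 (244927_at) rose by 0.66 ± 0.16 (limma adjusted p = 0.0309). Its call was lost without any 1 array other than heat replicate 1 (adjusted p up to 0.105), and with that covariate its change was 0.41 (adjusted p = 0.65). Of the 16 alternative fits, 13 called AT2G07715, 12 the tRNA pseudogenes and 6 AT2G07776, while AT2G07732 was called in 14 of the 15 that tested it. AT2G07835 (244957_at) was not called, at 0.26 ± 0.12 (limma adjusted p = 0.187). ORF187 was not called either, with levels of 3.50, 3.62 and 3.46 in the control arrays and 3.71, 3.78 and 3.61 after heat (limma adjusted p = 0.223), and the groups overlapped.

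**Figure D3:**
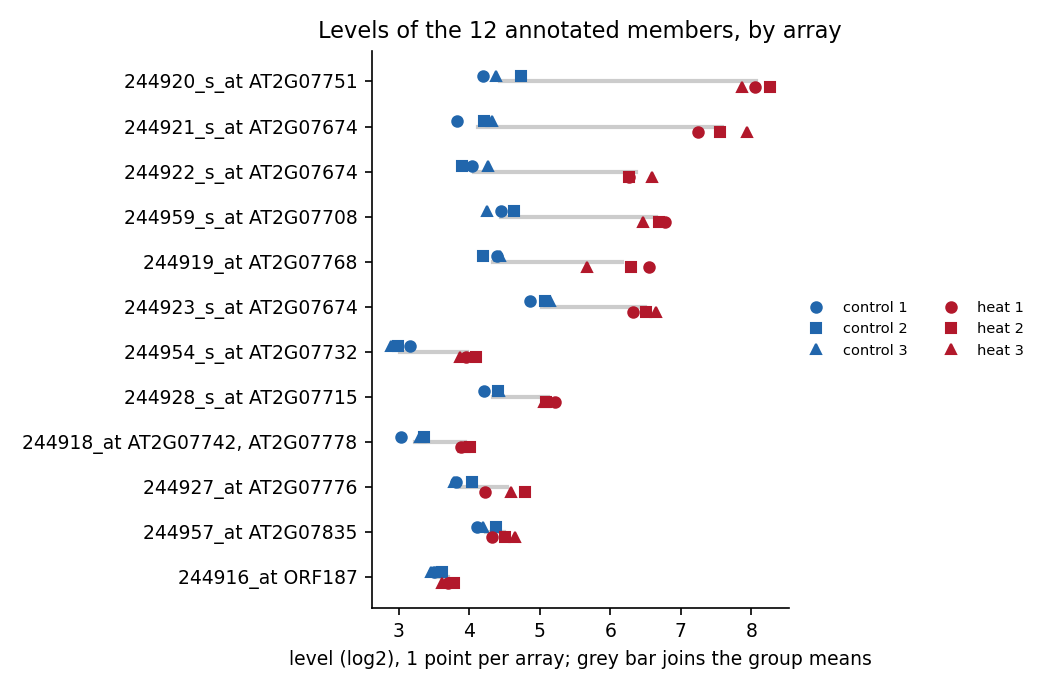
Level (log2, horizontal axis) of the 12 annotated members, 1 point per array, control arrays in blue and heat arrays in red, sorted by the size of the change. The groups are apart for all members but AT2G07835 and ORF187, and the 3 probe sets of AT2G07674 shift by 3.46, 2.31 and 1.47.

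Other probe sets of the array, numbered outside the block, read loci that lie between the outermost of these chromosome 2 loci in the order of the RefSeq table. There were 36 of them for 35 loci, and 30 rose while 0 fell, beside 7.82% and 11.5% of all probe sets tested. Their median change was 2.29 and the largest 4.59 ± 0.28 for AT2G07722 (limma adjusted p = 0.000102). AT2G07715 was read both inside and outside the block, and its outside probe set, 265232_s_at, rose by 1.64 ± 0.11 (limma adjusted p = 0.00019). The 39 members of the 50-member set that have no locus showed a median change of 0.61, and 27 of them rose (69.2%, beside the same 7.82%).

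The 13 members of the 50-member set that were not called had group means of 3.10 to 4.23 in control and 3.22 to 4.49 after heat. Their changes were all positive, from 0.08 to 0.61. The flower and seed markers given further on, expected low in seedlings, read up to 3.65. Some called rises of less than 2-fold also lay near that level. Member 244910_s_at had means of 3.28 in control and 3.62 after heat, and 244948_at had 3.08 and 3.62. Whether levels this low, in called or uncalled members, are RNA above background was not measured.

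The 76-member set varied more among the control arrays. The median level of its members was 9.23, 9.79 and 9.20 in control arrays 1, 2 and 3 and 9.78, 9.55 and 9.64 after heat, so control array 2 was on the side of the heat arrays. For the 50-member set the medians were 3.63, 3.78 and 3.68 in the control arrays and 4.38, 4.68 and 4.62 after heat. The 76-member set's median standard deviation was 0.39 in the control group and 0.16 after heat, where the 50-member set had 0.13 and 0.16. Control array 2 was the highest control for 65 of the 76 members (85.5%), beside 32.0% of all probe sets tested. It was also the highest control for 30 of the 50-member set (60.0%), and for 14 of 20 nuclear genes of organelle transcription and 6 of 7 of organelle RNA decay, which are described further on. It lay more than 1 log2 unit above both other controls for 16 of the 76 members, beside 0 of the 50-member set and 25 of all 22746 probe sets. No member stood out by as much in control array 1 or control array 3, although 461 probe sets of the array did so in control array 3.

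Member 244934_at shows the pattern at its strongest. Its level was 5.36, 8.24 and 5.42 in control arrays 1, 2 and 3 and 7.13, 7.39 and 7.77 after heat. The change of 1.09 was not called (limma adjusted p = 0.373), and control array 2 lay above all heat arrays. Member 244970_at lay at 5.47, 7.86 and 5.36 in the control arrays and at 7.27, 7.21 and 7.35 after heat (1.05, adjusted p = 0.314). Member 244972_at lay at 5.33, 7.18 and 5.40 in the control arrays and at 7.11, 7.08 and 7.07 after heat (1.12, adjusted p = 0.161). In all 16 members the 3 heat arrays lay above control arrays 1 and 3, and in 13 of them control array 2 was the highest of the 6 arrays. The heat arrays also lay above control arrays 1 and 3 in 24 of the other 60 members of the set, in 45 of the 50-member set and in 24.8% of all probe sets tested. Control array 2 was the highest of the 6 in 31 of those 60, in 0 of the 50-member set and in 3238 of all 22746 probe sets. The 16 members were picked for a high control array 2, which favours that rank and widens their control spread. Outside the block, 9 probe sets met the same condition. In 6 of these 9 control array 2 was the highest of the 6 arrays, and in 4 the heat arrays lay above control arrays 1 and 3. None of the 16 was called by limma, where 19.3% of all probe sets were called in either direction. An unadjusted p under 0.05 was found for 1 of the 16 and for 7337 of all 22746 probe sets. With each probe set's own spread in place of limma's moderated one, 0 of the 16 were called, where 971 of all probe sets rose and 1178 fell.

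**Figure D4:**
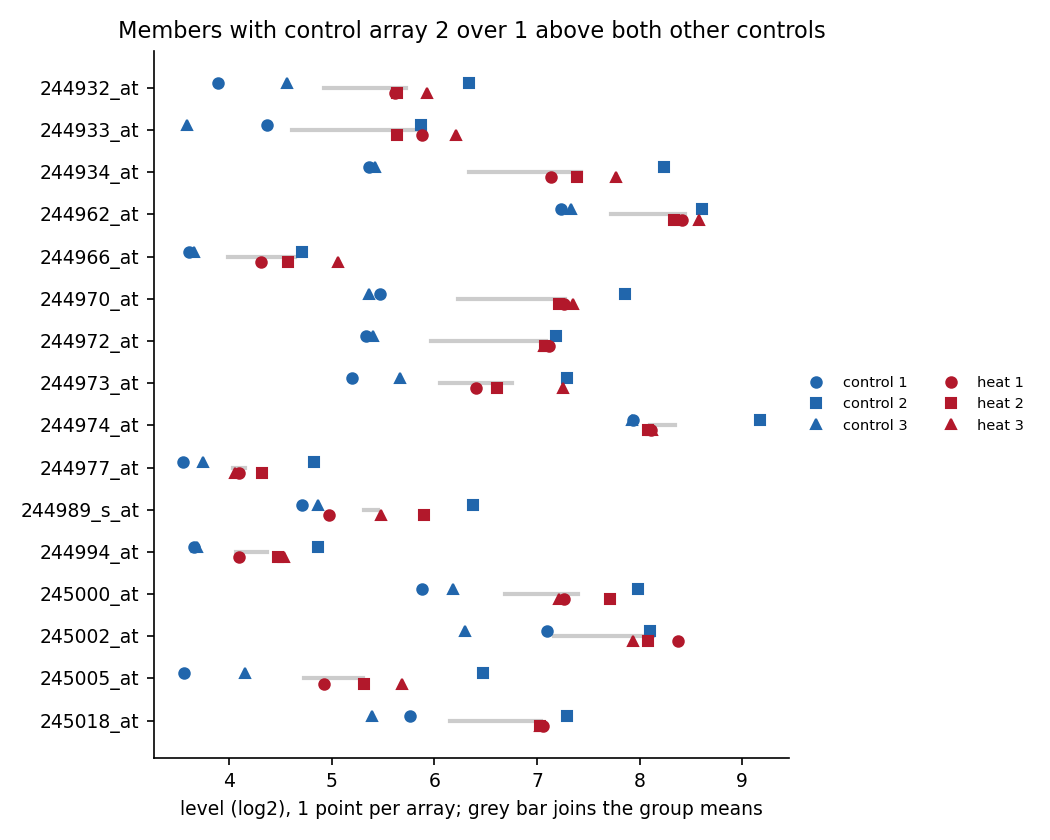
Level (log2, horizontal axis) of the 16 members in which control array 2 (blue square) lay more than 1 log2 unit above both other control arrays, 1 point per array, with the group means joined by a grey bar. The heat arrays (red) lie above control arrays 1 and 3 in all 16 members, as they do in 24 of the other 60 members of the set and 24.8% of all probe sets, and control array 2 is the highest point in 13 (3238 of all 22746 probe sets). The members were picked for a high control array 2, which favours that rank. Of 9 probe sets outside the block that met the same condition, it was the highest in 6.

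Leaving out control array 2 raised the number of the 76-member set that rose from 3 to 22, where 5.38% of all probe sets rose in that fit. Of those 22 members 13 were among the 16 just described. The largest changes were then 2.04 ± 0.20 for 244934_at (limma adjusted p = 0.003), 1.93 ± 0.28 for 244933_at (adjusted p = 0.0111) and 1.86 ± 0.09 for 244970_at (adjusted p = 0.000339). Without control array 1, without control array 3, without heat array 1 or without heat array 2 the number was 0, and without heat array 3 it was 1. That control array 2 stood apart was seen before it was left out. Leaving it out had to raise the change of the 16 members, which were picked for its high level. Their changes and calls in this fit are therefore no test. The rises in the 50-member set numbered 31 without it, all of them among the 37.

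With all 6 arrays, the 3 members of the 76-member set that rose each changed by no more than 2-fold. Member 245016_at went from 6.81, 7.52 and 6.52 to 8.14, 7.85 and 7.85, a change of 0.998 ± 0.25 (limma adjusted p = 0.036). Member 244975_at went from 8.07, 8.64 and 7.71 to 9.11, 9.11 and 8.78, a change of 0.86 ± 0.24 (limma adjusted p = 0.0495). Member 244939_at went from 8.28, 8.72 and 8.36 to 8.90, 9.16 and 8.87, a change of 0.52 ± 0.14 (limma adjusted p = 0.0477). The groups did not overlap, but each of these calls was lost without control array 1 or 3 or without any 1 heat array (adjusted p up to 0.125, 0.156 and 0.126). Under Bacillus scaling the changes were 0.49, 0.36 and 0.02 and none was called, and with the age covariate they were 1.43, 1.38 and 0.48, again with none called (adjusted p = 0.259, 0.234 and 0.564). Of the 16 alternative fits, 7 called 245016_at and 5 each of the others.

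The member that fell was 244935_at. It went from 13.49, 13.77 and 13.72 to 13.31, 13.15 and 13.36, a fall of 0.39 ± 0.11 on the log2 scale (limma adjusted p = 0.0487). The call was lost without control array 2 or 3 or without any 1 heat array (adjusted p up to 0.136), and the age covariate gave -0.61 (adjusted p = 0.263). Under Bacillus scaling it was -0.90, and in that fit 22 members of the 76-member set and 9667 of all probe sets fell while 1 member of the set rose. It was called in 4 of the 16 alternative fits.

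**Figure D5:**
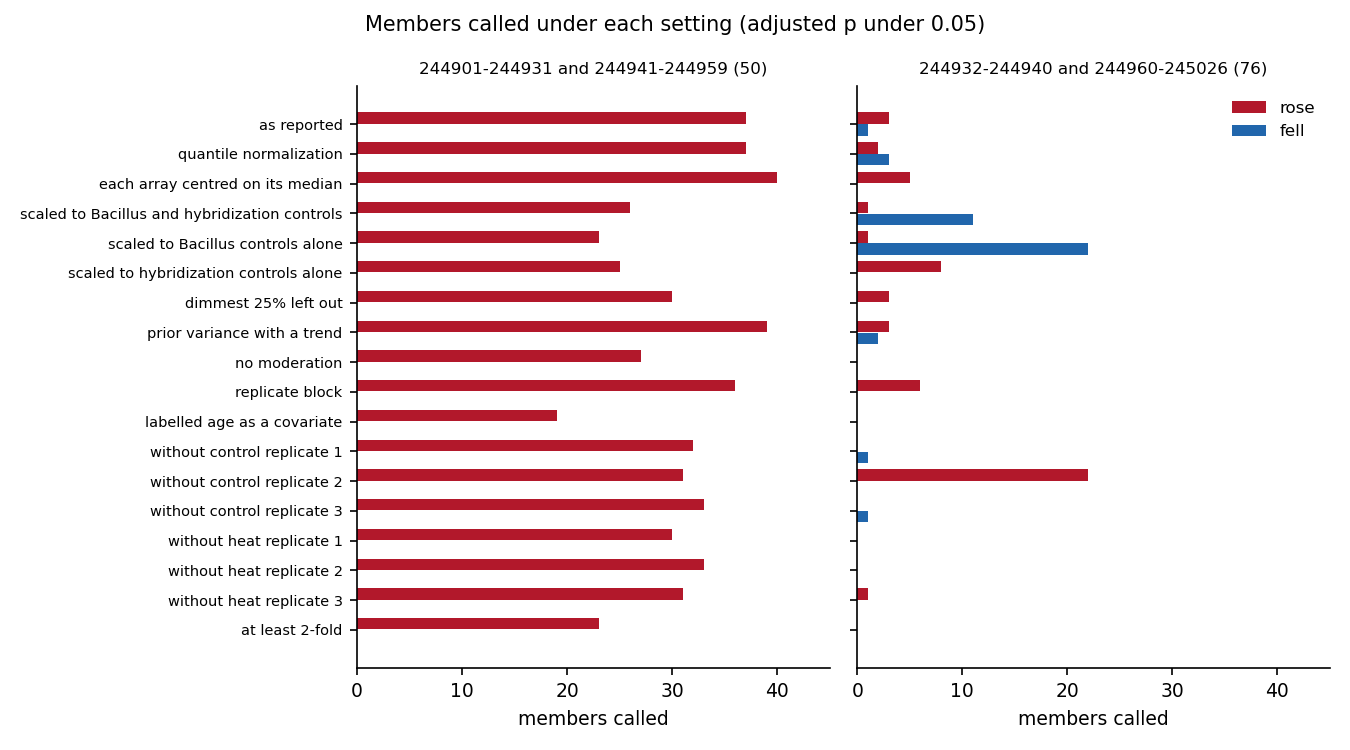
Number of members called higher (red bars) and lower (blue bars) at an adjusted p under 0.05 in each set of numbers, as reported and under each alternative setting. The 50-member set has between 19 and 40 rises and 0 falls, while in the 76-member set leaving out control array 2 gives 22 rises and Bacillus scaling gives 22 falls. The bounds of both sets were chosen after the changes had been seen.

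Measures of RNA quality and of the control RNAs were set beside these results. The 25S ribosomal RNA probe set, which was not tested, went from 11.31, 11.02 and 11.07 to 11.84, 12.00 and 11.79. The 5S ribosomal RNA probe set read 4.32, 5.68 and 4.48 in the control group and 4.91, 5.61 and 5.12 after heat, and control array 2 stood above the other controls there too. The 5′ minus the 3′ probe set, which is lower where RNA is shorter or labelled from its 3′ end, was -3.18 ± 0.15 in control and -2.05 ± 0.07 after heat for actin (SD, n = 3 each). For GAPDH it was -2.32 ± 0.19 and -1.49 ± 0.18, and for ubiquitin -1.94 ± 0.17 and -1.87 ± 0.10. The mean of the Bacillus control probe sets was 6.43 ± 0.04 in control and 6.93 ± 0.26 after heat, and that of the 18 hybridization controls 10.12 ± 0.33 and 10.16 ± 0.15. The part of these shifts in the changes of the members was not tested.

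The seedling label was checked against markers. The 3 green leaf marker probe sets lay between 12.8 and 14.1 on all arrays, and those of flower and seed between 3.02 and 3.65. Of the 4 leaf genes only 1, CA1, had a probe set linked to it alone, and the others were read by probe sets shared between genes. Of 5 root markers, the root hair genes COBL9, PRP3, EXP7 and RHD6 lay between 3.32 and 4.29, with changes of 0.16, 0.03, 0.17 and -0.10, none called. These levels lay within or near those of the flower and seed markers, so the root hair genes say little about whether root RNA was present. SCR fell from 6.24, 6.19 and 5.79 to 4.36, 4.22 and 4.36 (limma adjusted p = 0.000287). The log2 levels of the leaf probe sets summed to 40.2 to 40.8 in control and 39.9 to 40.1 after heat, and those of the root probe sets to 21.0 to 21.6 and 19.6 to 20.1. Of the 5 root markers only SCR was called, with a change of -1.76, and 3 of the others had a positive change. In whole seedlings, fewer cells of a type and less RNA per cell cannot be told apart.

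Nuclear genes encode most proteins that transcribe and degrade organelle RNA. Of 21 genes for sigma factors, phage-type RNA polymerases and proteins of the plastid-encoded polymerase complex, 20 were measured, of which 2 rose and 2 fell, with a median change of -0.03 beside 0.02 for all probe sets. These are 10.0% in each direction, near the 7.82% and 11.5% of all probe sets, and are no result about the list. PAP2 (AT1G74850), a pentatricopeptide repeat protein of that complex, fell from 6.49, 6.54 and 6.14 to 5.37, 5.52 and 5.82, by 0.82 ± 0.16 on the log2 scale (limma adjusted p = 0.0141), a call lost without control array 2 (adjusted p = 0.0516) or heat array 1 (adjusted p = 0.0555). PAP11 (AT1G63680), a MurE-like protein, fell by 0.55 ± 0.15 (limma adjusted p = 0.0429). PAP10 (AT3G06730), thioredoxin z, rose by 0.59 ± 0.15 (limma adjusted p = 0.0345) and PAP7 (AT4G20130), a SET-domain protein, by 0.53 ± 0.13 (adjusted p = 0.0303). PAP7 has 2 probe sets, and only the brighter one is given. The calls of PAP7, PAP10 and PAP11 were each lost without any 1 heat array and without control array 1, and also without control array 2 for PAP11 and control array 3 for PAP10 and PAP7 (adjusted p up to 0.138). Under Bacillus scaling PAP10 was at 0.09 and PAP7 at 0.03, neither called, and PAP11 at -1.05, called. With the age covariate none of the 4 was called (adjusted p from 0.291 to 0.702), and PAP11 was at -0.33. Of the 16 alternative fits 12 called PAP2, and 5 called each of the other 3.

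The sigma factors SIG1 to SIG6, which direct the plastid-encoded polymerase to its promoters, were not called. SIG5 (AT5G24120) measured 4.88, 6.21 and 4.51 in control arrays 1, 2 and 3 and 6.06, 5.44 and 6.24 after heat, a change of 0.71 ± 0.45 (limma adjusted p = 0.331). Without control array 2 it was at 1.21 and called (adjusted p = 0.0396). Among the phage-type polymerases, the plastid enzyme RPOTP differed by 0.34 ± 0.13 (limma adjusted p = 0.115) and the mitochondrial enzyme RPOTM by -0.47 ± 0.20 (adjusted p = 0.156). RPOTP was called without control array 2 (0.47, adjusted p = 0.0281) and with median centring (0.44, adjusted p = 0.0491), and RPOTM without control array 3 (-0.69, adjusted p = 0.00543), under Bacillus scaling (-0.97, adjusted p = 0.000893) and with both kinds of control RNA (-0.77, adjusted p = 0.0237). All 7 genes for ribonucleases and RNA-binding proteins of organelle RNA decay, among them both polynucleotide phosphorylases, were measured. The ribonuclease gene RNJ (AT5G63420) has 2 probe sets, and only the brighter one was used. By limma 0 of the 7 were called, 1 had an unadjusted p under 0.05, and 0 were called with each probe set's own spread. Over all 22746 probe sets 19.3% were called by limma and 7337 had an unadjusted p under 0.05. With 7 genes these counts are no result about the list. Their changes ran from -0.26 to 0.08.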

How the data were processed

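RNA of 6 seedling samples was measured on 1 Affymetrix array each, from total RNA labelled with biotin, per the labels. The deposited values are log2 levels, made by the authors with RMA per the submitters' processing notes. Its version is not given in the sources used here. RMA gives arrays near-equal distributions, so a change in total RNA would not show. Both deposited tables hold the same values (136860 of 136860 cells equal). An array gives no read depth, and the number of arrays limits precision. No filter on low values was applied.

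Groups came from the sample titles. Heat was compared with control in limma 3.58.1 under R 4.3.3, with lmFit and eBayes and no factor besides group. Tests were 2-sided, with 4 residual and 2.65 prior degrees of freedom, and p-values were adjusted by Benjamini-Hochberg over 22746 probe sets. The fit was tested on simulated data. An exact permutation of 3 against 3 arrays cannot go below p = 0.1. Gene identifiers were matched to the RefSeq table of TAIR10.1, and a listed gene with several probe sets was represented by the one with the highest mean. Tables and figures used matplotlib 3.10.9 and pandas 2.3.3 with numpy 2.4.6 under Python 3.11.15.

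The design foresaw plastid and mitochondrial groups by locus prefix, roles by gene symbol, and medians for each genome. The annotation holds neither, so members were described over runs of numbers. The rule for named members kept the 10 largest rises, the 10 largest falls among called members whose groups do not overlap (1 existed) and, added, all annotated members and those called in the 76-member set. The members singled out for control array 2 were picked with their values in view. The members and lists were chosen with earlier results of these data known. Same-numbered control and heat arrays deviated from their group means with correlations of 0.04, 0.19 and -0.08 over all probe sets, so the numbers were not taken to pair the samples. Alternatives were quantile normalization, centring on the median, scaling to control probe sets, dropping the dimmest 25%, a prior with a trend, no moderation, a replicate block, the labelled age, a 2-fold minimum, 1 probe set per gene and leaving out each array. Scaling to the Bacillus or to the hybridization controls alone was added after seeing the data.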

Additional observations from a re-analysis of the deposited data

How the results depend on the processing

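The bounds of the 50-member set were chosen after the changes had been seen, so a lack of falls in it is no test. In the 50-member set no member was called lower under any setting, and 18 members, all at least 2-fold, were called higher in each of the 16 alternative fits in which they were tested. Its 37 rises became 23 after scaling to the Bacillus controls, 19 with the labelled age and 23 at a 2-fold minimum, and 30 to 33 when single arrays were left out. Its median change of 0.84 became 0.54 after scaling to both kinds of control and 0.34 with the Bacillus controls alone. It became 1.37 without the dimmest 25% (which removes 12 members). At 1 probe set per gene it was 1.39 over 8 genes. This setting keeps only members linked to a single gene, so the 39 members without a locus drop out. No such value exists for the 76-member set. That set's median of 0.20 became -0.10 after scaling to both kinds of control and -0.30 with the Bacillus controls alone. Its 3 rises became 5 with median centring, 1 with both kinds of control, 1 with Bacillus and 8 with hybridization controls alone, 0 without moderation, 0 with the labelled age, 0 at 2-fold, and 0 to 22 when single arrays were left out. Its 1 fall became 3 with quantile normalization, 11 with both kinds of control, 22 with Bacillus controls alone, 2 with a trend, 0 to 1 when single arrays were left out, and 0 with median centring, hybridization controls, no dim probe sets, no moderation, the labelled age or the 2-fold minimum. With the replicate block, 36 of the 50-member set rose, and in the 76-member set 6 rose and 0 fell. Whether the replicate numbers pair the samples is not known, and they were not taken to do so. Signs turned for ORF187 (-0.13 with both kinds of control, -0.33 with Bacillus alone), AT2G07835 (-0.046, -0.24, and -0.054 with the age), RPOTM (0.12 with the age) and RPOTP (-0.16 with Bacillus alone), none called. The cause of these shifts was not tested. Over all probe sets, rises numbered 643 and falls 9667 after scaling to the Bacillus controls, 743 and 5132 with both kinds, 775 and 1791 with hybridization controls alone, 359 and 227 with the age, 971 and 1178 without moderation, and 3054 and 2126 with median centring, against 1778 and 2614. Labelled age rises from the control to the heat arrays, so calls lost in the fit with age do not tell age from heat. Over all probe sets the median, 0.02 as reported, became 0.12 with median centring, -0.29 with both kinds of control and -0.49 with Bacillus controls alone.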

Other observations

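Besides the 16 members, 9 probe sets of the array had control array 2 more than 1 log2 unit above both other controls. Of these 9, 4 had all heat arrays above control arrays 1 and 3, as the 16 members did, and in 6 control array 2 was the highest of the 6 arrays. By limma 0 of the 9 rose and 2 fell after heat, where 7.82% and 11.5% of all probe sets did. CDEF1 fell by 3.06 on the log2 scale (limma adjusted p = 0.00146) and MYB47 by 1.10 (limma adjusted p = 0.0387). The others include SIG5, given above, the dark-inducible gene DIN2, the cold-response factor gene DREB1A and the linker histone gene HIS1-3, all named, like CDEF1 and MYB47, after their values were seen. DIN2 measured 3.39, 7.35 and 3.47 in control arrays 1, 2 and 3 and 7.30, 5.83 and 8.14 after heat (limma adjusted p = 0.214). DREB1A lay at 4.37, 6.16 and 4.00 in the control arrays and at 3.81, 4.42 and 3.62 after heat (limma adjusted p = 0.323). HIS1-3 lay at 6.002, 7.59 and 5.58 in the control arrays and at 5.42, 6.22 and 6.62 after heat (limma adjusted p = 0.762). For DIN2 all heat arrays lay above control arrays 1 and 3, whereas for DREB1A and HIS1-3 they did not.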
